A study of Mus musculus with 12 samples.

Results

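The genes described here encode the enzymes and glucose transporters of glycolysis and further genes of the response to low oxygen. The members, 32 gene symbols, were fixed by name, with earlier results of these data known. Of these, 20 code for glycolytic enzymes, their regulators or glucose transporters and 12 for targets or regulators of hypoxia-inducible factor (HIF) outside glycolysis. All 32 were found, in 33 of 56691 rows of the count tables, because Aldoa has a second row (ENSMUSG00000114515), which is kept apart. The study sequenced RNA in 12 libraries of cultured 4T1 and EMT6 cells, which are mouse mammary carcinoma lines. The groups are 4T1 control, 4T1 sgNEDD4 knockout (KO), EMT6 control and EMT6 sgNEDD4 KO, with 3 libraries in each of the 4 groups, controls labelled wild type and no further treatment named. The labels leave unsaid if libraries within a group are separate cultures, or if a KO derivative is 1 clone, and where the guide cuts Nedd4, so p-values measure only the spread between these libraries. Cells grew in ordinary humidified culture, and no oxygen level other than that of the incubator was labelled.

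Glycolysis splits glucose into pyruvate in the cytosol, and lactate dehydrogenase turns pyruvate into lactate when the mitochondria do not take it up. HIF is a transcription factor made of a labile alpha subunit and a stable partner. When oxygen is present, prolyl hydroxylases mark the alpha subunit for destruction, and when oxygen is short HIF raises transcription of most glycolytic genes, of the prolyl hydroxylases themselves and of genes that slow mitochondrial work. Tumour cells often run glycolysis at a high rate even in oxygen, and 4T1 and EMT6 are widely used as transplantable tumours of BALB/c mice.

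Total counts ran from 13705612 to 19761604 per library. Nedd4 checked the labels: it stood at 93.5 to 97.6 FPKM (counts scaled to exon length and library total) in 4T1 controls and 24.7 to 25.3 in 4T1 KO, and at 116.5 to 122.5 in EMT6 controls and 11.5 to 12.1 in EMT6 KO. Of 8 epithelial markers, 7 reached 1 FPKM in 4T1 and 5 in EMT6, where Cdh1 was at or near 0 and Col1a1 stood at 165 ± 11.5 FPKM (SD, n = 3) in controls. None of 4 endothelial, 2 red cell and 2 adipocyte markers reached 1 FPKM, and of 8 leukocyte markers 2 reached it in 4T1 (Cd14 and Cd68) and 3 in EMT6 (Csf1r as well). Cd14 stood at group means of 8.13 to 13.0 FPKM and Cd68 at 7.39 to 19.4, while Ptprc and Cd3e were at or near 0. Nuclear RNAs differed between KO and control in 4T1. There Malat1 stood at 69.3 to 155 CPM (each library scaled to an equal total) in controls and 479 to 560 in KO, Neat1 at 51.6 to 84.6 and 241 to 333, and genes with a count numbered 18836 to 19017 and 20937 to 21264. In EMT6, Neat1 went the other way, from 66.8 to 138 CPM in controls to 28.2 to 36.1 in KO, while Malat1 overlapped, at 189 to 450 and 158 to 200 CPM. The summed epithelial markers stood at 1930 to 2010 FPKM in 4T1 controls and 1410 to 1490 in 4T1 KO, and at 351 to 418 and 379 to 393 in EMT6. The summed fibroblast markers stood at 351 to 381 FPKM in EMT6 controls and 503 to 574 in EMT6 KO, and the leukocyte markers at 28.6 to 34.3 and 16.2 to 18.0. Most of that fibroblast sum was Col1a1, at 165 ± 11.5 and 202 ± 16.7 FPKM, and Col1a2, at 199 ± 4.24 and 323 ± 21.3. Pdgfra stood at 5.55 ± 0.321 and 4.83 ± 0.481 FPKM, and Dcn and Lum at or near 0. Most of the leukocyte sum was Cd14 and Cd68. Csf1r went the other way, from 0.513 ± 0.0987 to 1.04 ± 0.085 FPKM. In 4T1 the fibroblast sum was 4.88 to 5.83 and 5.26 to 5.47 FPKM, and the leukocyte sum 24.2 to 26.7 and 26.5 to 29.5. Within that leukocyte sum Cd14 went from 13.0 ± 0.648 to 8.13 ± 0.232 FPKM and Cd68 from 11.5 ± 1.02 to 18.6 ± 2.03. The part of these shifts in the results below was not tested, and in bulk RNA fewer cells of a kind and less RNA per cell cannot be told apart.

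Individual libraries also stood apart in these genes. Control 3 of 4T1 was the highest control for 17 of 19 tested glycolysis members and for 11 of 12 HIF members, against 38.0% of all tested genes. KO 3 of EMT6 was the highest KO library for 18 of 20 and 11 of 12, against 37.4% of all tested genes. Control 2 of EMT6 was the highest control for 16 of 20 and 9 of 12, against 27.8%. Members therefore varied together between libraries of the same group. Control 3 of 4T1 had the lowest total of its group, 13705612 counts, and KO 3 of EMT6 the lowest of its own, 15742456. Control 2 of EMT6 did not: it had 18285495 counts, and the lowest EMT6 control was control 1, with 14307493. The part of depth in this joint variation was not tested. Calls of KO against control that change without one of these libraries are named with the gene.

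More members were called lower than higher in 4T1 KO cells, and more higher than lower in EMT6 KO cells. In 4T1 KO cells most of the called members fell: lactate dehydrogenase Ldha, the glucose transporter Slc2a1, the liver-type phosphofructokinase Pfkl, the prolyl hydroxylase Egln3 and the vasodilator peptide gene Adm were all lower. In EMT6 KO cells Ldha, Slc2a1 and Pfkl rose, as did Egln1, Ankrd37 and Higd1a, while Pfkfb3, Hk2 and Aldoc fell. A gene is called here where edgeR's quasi-likelihood test gives a Benjamini-Hochberg adjusted p under 0.05 over all tested genes of the fit. The members were chosen with earlier results of these data known, so their shares beside those of all tested genes are descriptive only. In 4T1, 17 of 31 tested members (54.8%) were called lower and 3 (9.68%) higher, against 29.0% lower and 28.0% higher among all 13313 tested genes, of which 57.0% were called. EMT6 had 15 of 32 (46.9%) called higher and 7 (21.9%) lower, against 27.9% and 28.2% of 12890 tested genes, of which 56.0% were called. Most members are well expressed, and among tested genes averaging 5 FPKM or more the background was 39.2% lower and 25.2% higher in 4T1 (64.4% called) and 30.3% lower and 32.5% higher in EMT6 (62.8% called). A total of 11 members were called lower in 4T1 and higher in EMT6 (35.5% of the 31 tested in both lines), where 10.2% of all genes tested in both were, and 2, Pfkm and Gapdh, were higher in 4T1 and lower in EMT6, where 9.42% were. The 4T1 balance of all genes moves with the scaling: 49.1% of called genes were higher with TMM and 61.2% with total counts only, and no member's call changed direction under any scaling.

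**Figure D1:**
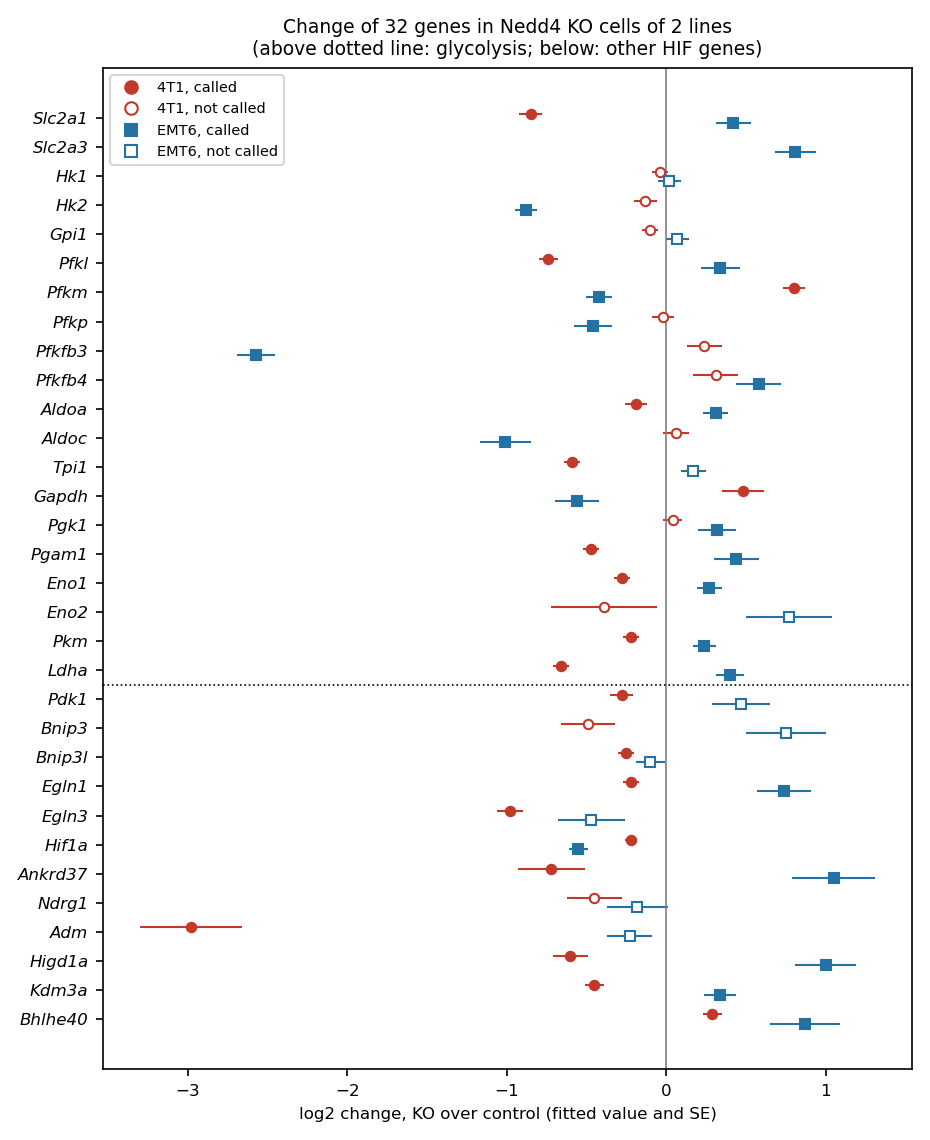
Fitted log2 change of each member, KO over control, with its SE (horizontal axis, log2 scale), for 4T1 (circles) and EMT6 (squares). Filled symbols passed an adjusted p of 0.05 and open symbols did not. The members called lower in 4T1 and higher in EMT6 have symbols on both sides of 0. Farthest out of all members are Adm at -2.98 in 4T1 and Pfkfb3 at -2.57 in EMT6, which are not among these.

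The promoters of the opposite movers are shown because these genes share a regulator in textbooks: HIF binds a short core, ACGTG or GCGTG, within hypoxia response elements. The 5 printed first are those with the largest difference between the lines among the 11 members called lower in 4T1 and higher in EMT6, and Hif1a is added as the member called lower in both lines. Each runs 5′ to 3′ on the gene's own strand from 250 bases before to 50 bases after the RefSeq start site in GRCm38.p6. Capitals mark ACGTG or GCGTG on either strand, and overlapping matches run together.
Ankrd37: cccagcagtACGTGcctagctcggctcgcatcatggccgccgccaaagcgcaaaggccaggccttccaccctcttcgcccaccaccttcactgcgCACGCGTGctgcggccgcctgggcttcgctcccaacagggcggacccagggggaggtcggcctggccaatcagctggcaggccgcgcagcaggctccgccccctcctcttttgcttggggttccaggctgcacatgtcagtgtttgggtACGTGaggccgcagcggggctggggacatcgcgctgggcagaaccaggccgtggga
Higd1a: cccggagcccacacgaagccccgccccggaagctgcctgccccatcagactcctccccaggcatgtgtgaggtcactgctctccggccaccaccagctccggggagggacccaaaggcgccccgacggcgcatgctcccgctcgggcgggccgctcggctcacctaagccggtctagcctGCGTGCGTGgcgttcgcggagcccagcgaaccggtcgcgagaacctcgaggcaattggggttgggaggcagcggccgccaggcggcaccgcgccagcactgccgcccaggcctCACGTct
Slc2a1: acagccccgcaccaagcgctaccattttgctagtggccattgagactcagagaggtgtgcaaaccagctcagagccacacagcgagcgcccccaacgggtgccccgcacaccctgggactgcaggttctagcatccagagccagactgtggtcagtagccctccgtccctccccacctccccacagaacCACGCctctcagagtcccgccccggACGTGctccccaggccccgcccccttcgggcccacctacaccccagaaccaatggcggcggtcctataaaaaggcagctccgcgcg
Pfkl: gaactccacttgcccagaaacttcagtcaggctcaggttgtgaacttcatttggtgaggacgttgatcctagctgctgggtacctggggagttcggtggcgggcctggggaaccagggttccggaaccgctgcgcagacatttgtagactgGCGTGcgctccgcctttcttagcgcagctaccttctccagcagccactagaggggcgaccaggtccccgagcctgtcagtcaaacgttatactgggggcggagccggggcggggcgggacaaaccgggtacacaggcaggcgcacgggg
Ldha: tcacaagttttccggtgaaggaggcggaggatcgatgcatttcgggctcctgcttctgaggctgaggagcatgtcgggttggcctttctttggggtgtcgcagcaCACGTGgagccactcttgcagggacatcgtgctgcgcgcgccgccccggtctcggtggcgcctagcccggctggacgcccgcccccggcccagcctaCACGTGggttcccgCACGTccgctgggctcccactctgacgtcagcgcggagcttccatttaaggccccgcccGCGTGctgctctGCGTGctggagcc
Hif1a: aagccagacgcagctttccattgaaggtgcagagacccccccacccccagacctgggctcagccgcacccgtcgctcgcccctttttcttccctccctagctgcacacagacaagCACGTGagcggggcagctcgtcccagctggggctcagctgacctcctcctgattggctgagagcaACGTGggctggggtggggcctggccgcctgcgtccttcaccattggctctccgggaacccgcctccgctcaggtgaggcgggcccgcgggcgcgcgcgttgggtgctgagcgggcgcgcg

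The Ankrd37 promoter lies at chr8:45999801-46000100 on the minus strand and holds 4 matches. That of Higd1a is chr9:121857747-121858046, minus strand, with 3, and that of Slc2a1 is chr4:119108495-119108794, plus strand, with 2. The Pfkl promoter, chr10:78009758-78010057 on the minus strand, holds 1. The first of the Ldha promoters, chr7:46845554-46845853 on the plus strand, holds 7, of which 4 come from 2 copies of CACGTG, a palindrome that holds ACGTG on both strands. The Hif1a promoter, chr12:73907617-73907916 on the plus strand, holds 3, of which 2 come from 1 CACGTG. RefSeq promoters were at hand for 28 of the 32 members, and Slc2a3, Bnip3l, Ndrg1 and Bhlhe40 had none. Of 43 promoters of these genes, 33 (76.7%) held ACGTG or GCGTG, against 43.8% of all 32851 RefSeq promoters of this length. The member promoters were also richer in CpG, with a median of 20 CpG against 7 and a mean GC content of 61.1% against 53.8%, and both cores hold a CpG. CACGTG was in 11.6% of member promoters and in 7.15% of all. Members outside the opposite movers held such matches too. There were 5 in 1 of the Hk1 promoters, 5 in that of Bnip3, 4 in 1 of Pfkfb3 and 4 in that of Pfkp. Those of Gpi1, Tpi1 and Eno2 held 0. A match is a description of these letters only, and a link between matches and the direction of change was not tested.

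**Figure D2:**
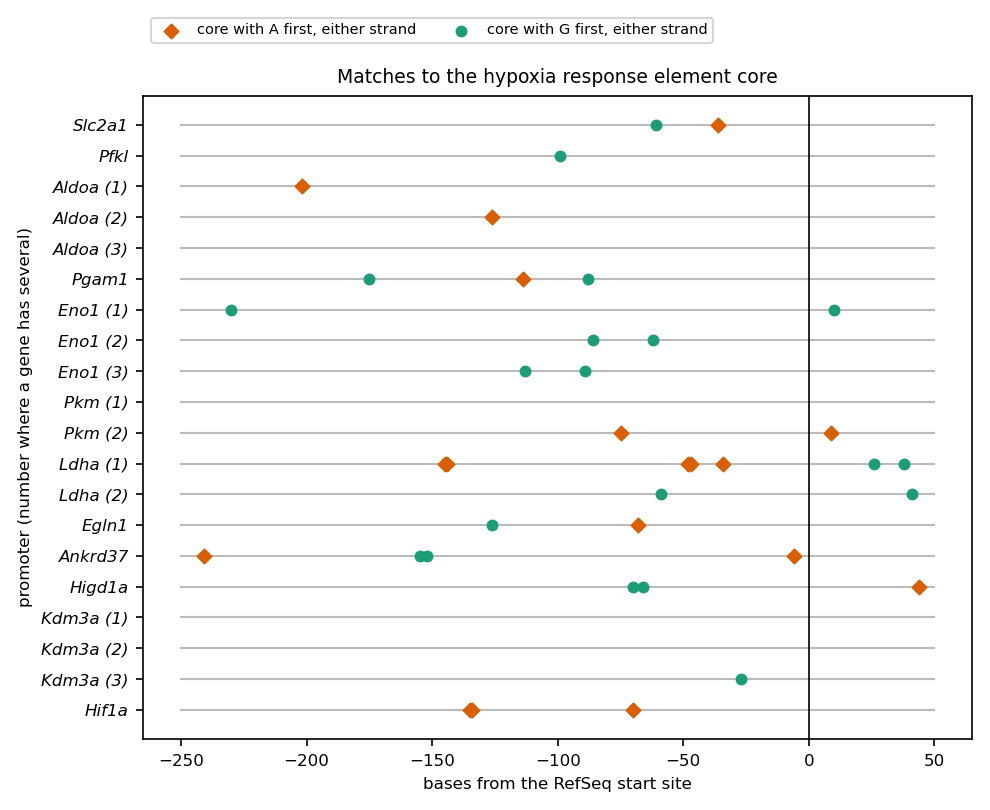
Positions of ACGTG (diamonds) and GCGTG (circles), either strand, in the RefSeq promoters of the 11 members called lower in 4T1 and higher in EMT6 and of Hif1a. The horizontal axis is the distance in bases from the start site, each grey line is 1 promoter, and the first Ldha promoter carries the most matches of the promoters drawn, 7.

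In control cells the members spanned a wide range. Pyruvate kinase Pkm was the most abundant member in all 4 groups, at 571 ± 40.4 FPKM in 4T1 controls and 787 ± 50.6 in EMT6 controls. Ldha, Aldoa and Tpi1 followed, in ranks 2 to 4 in every group, with Aldoa and Ldha within their spread of each other in both control groups (381 ± 43.1 and 406 ± 36.4 FPKM in 4T1, 473 ± 33.6 and 463 ± 44.6 in EMT6). At the other end were Pfkfb4 at 1.51 ± 0.184 and 1.24 ± 0.0802 FPKM and Slc2a3, a high-affinity glucose transporter. Slc2a3 had 1 count in the 4T1 controls together and 88, 117 and 129 counts in the EMT6 controls. EMT6 controls were above 4T1 controls for 16 of 20 glycolysis members and below for 1, Eno1, in a joint fit in which 74.7% of all genes were called (37.5% higher and 37.2% lower in EMT6). Pfkm stood 3.65-fold higher in EMT6 controls (log2 1.87 ± 0.08), Pfkfb3 4.04-fold (2.01 ± 0.12), Pgk1 3.13-fold (1.65 ± 0.12) and Aldoc 3.05-fold (1.61 ± 0.15). The HIF members split evenly, 4 higher and 4 lower. Without control 2 of EMT6, Ldha, Pfkl and Bnip3 were no longer called higher in EMT6 controls. Adm was 12.5-fold higher in EMT6 controls, from 2.85 ± 1.06 to 34.6 ± 3.52 FPKM, whereas Ndrg1, a stress-induced gene, was 2.88-fold lower and Egln3 2.29-fold lower. Line cannot be told apart from anything else that differed between the 2 sets of cultures.

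**Figure D3:**
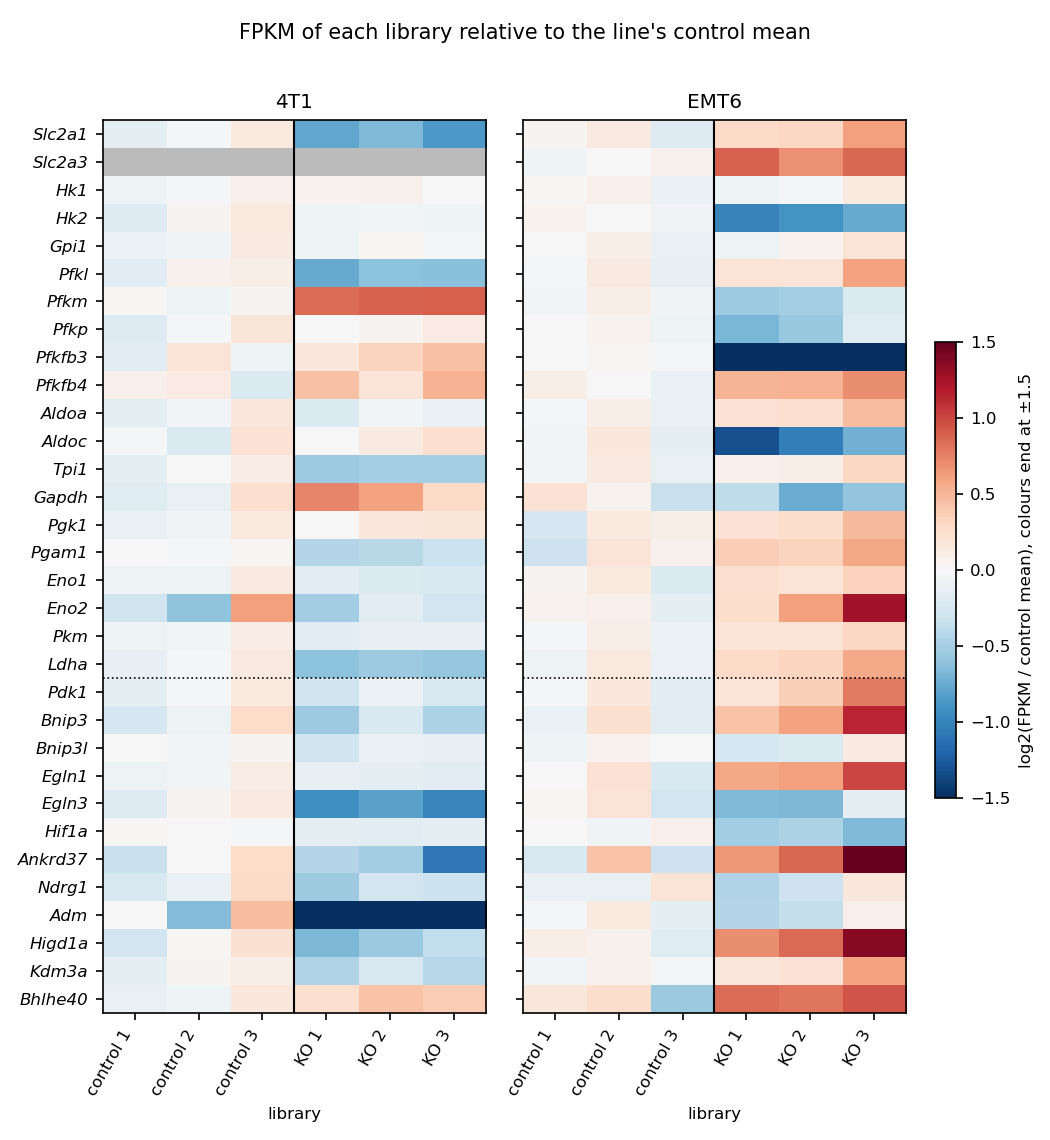
FPKM of each library relative to the control mean of its line, as log2 (colour, ends at ±1.5), for the 32 members (rows) in the 6 libraries of 4T1 and of EMT6 (columns). Grey cells have a control mean under 0.5 FPKM, as Slc2a3 has in 4T1. Most HIF rows are blue in the 4T1 KO columns, and KO 3 of EMT6 and control 3 of 4T1 are redder than the libraries beside them.

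At glucose entry and its first phosphorylation, Slc2a1 moved in opposite directions in the 2 lines and Hk2 fell in EMT6. Slc2a1 (ENSMUSG00000028645), the main glucose transporter of most growing cells, stood at 38.6, 42.1 and 47.2 FPKM in 4T1 controls and 24.8, 26.8 and 23.5 in 4T1 KO. Every KO library was below every control. It fell by 0.85 ± 0.07 on the log2 scale (SE, n = 3 per group, edgeR adjusted p = 7.8e-09), 1.80-fold. In EMT6 it stood at 55.7, 59.7 and 47.3 FPKM in controls and 66.3, 67.5 and 83.2 in KO, again without overlap but in the other direction. That rise was 0.42 ± 0.11 (edgeR adjusted p = 0.0123), and it lost its call when the replicate number was added as a block. Slc2a3 rose in EMT6 from 0.85, 0.88 and 0.93 FPKM to 1.64, 1.43 and 1.61 (log2 change 0.81 ± 0.13, edgeR adjusted p = 4.51e-05), yet it still made up only 2.13 ± 0.262% of the summed FPKM of both transporters. Its span overlaps the predicted gene Gm4482, which reached 3.39 FPKM. In all, the spans of 7 members overlap another gene that reached 1 FPKM, the others being Slc2a1, Pfkm, Pfkp, Tpi1, Pkm and Ankrd37.

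Hexokinase 2 (Hk2), the inducible hexokinase that tumours often favour, fell in EMT6, where Slc2a1 rose. In EMT6 it stood at 21.8, 21.1 and 20.3 FPKM in controls and 10.6, 11.4 and 12.5 in KO, with no overlap. It fell by 0.88 ± 0.07 (edgeR adjusted p = 1.28e-08), while Hk1, the housekeeping form, was at 32.8 ± 1.96 and 33.3 ± 2.6 FPKM. The Hk2 share of summed hexokinase FPKM went from 39.1 ± 1.09% to 25.6 ± 0.394%. In 4T1, Hk2 stood at 21.9 ± 2.57 and 21.1 ± 0.254 FPKM and was not called (edgeR adjusted p = 0.0943), though it was called lower without control 1 (-0.23, edgeR adjusted p = 0.00106). The difference of the 2 Hk2 effects was itself called, at -0.73 ± 0.10 (edgeR interaction, adjusted p = 5.82e-07). Gpi1, the next enzyme, was called in neither line with all libraries, and lower in 4T1 without control 1 (-0.15, edgeR adjusted p = 0.0184).

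Phosphofructokinase, the committing step, changed in isozyme makeup in both lines and in opposite directions. Pfkl stood at 35.2, 41.1 and 41.9 FPKM in 4T1 controls and 23.3, 25.8 and 25.6 in KO. All KO libraries were lower, and Pfkl fell by 0.74 ± 0.06 (edgeR adjusted p = 1.1e-08). The muscle-type isozyme Pfkm stood at 6.67, 6.26 and 6.77 FPKM in 4T1 controls and 11.8, 12.1 and 12.2 in KO, and it rose by 0.80 ± 0.07 (edgeR adjusted p = 1.44e-09). In EMT6, Pfkm went from 22.8, 25.0 and 22.7 FPKM to 16.1, 16.5 and 20.2, a fall of 0.42 ± 0.08 (edgeR adjusted p = 5.11e-04). Pfkl there stood at 49.7, 54.9 and 46.0 FPKM in controls and 57.8, 57.5 and 76.1 in KO. Its rise, 0.34 ± 0.12 (edgeR adjusted p = 0.0459), was lost with a replicate block and without control 1 or control 3 (edgeR adjusted p = 0.146 and 0.248). The platelet-type Pfkp fell in EMT6 by 0.46 ± 0.12 (edgeR adjusted p = 0.0146), a call lost on leaving out any 1 of the controls (edgeR adjusted p from 0.0525 to 0.0927), and was not called in 4T1 (-0.02 ± 0.07). As shares of summed phosphofructokinase FPKM, Pfkl went from 70.4 ± 1.23% to 52.5 ± 0.965% in 4T1 and Pfkm from 11.8 ± 1.2% to 25.5 ± 0.579%. In EMT6 the Pfkl share went from 56.1 ± 1.03% to 68.7 ± 0.675% and the Pfkm share from 26.3 ± 0.725% to 19.0 ± 0.63%. The library-to-library spread of these shares was small beside the shift, also for control 3 of 4T1 and KO 3 of EMT6. The span of Pfkm overlaps that of Senp1 on the other strand, which changed by 0.15 in 4T1 and -0.17 in EMT6. That of Pfkp overlaps Pitrm1 on the other strand, which stood at 29.2 to 38.4 FPKM. Of the 50-base stretches of Pfkp coding transcripts, 15.4% also occur in Pitrm1. The strand setting is not stated, so the Pfkm and Pfkp counts are uncertain to that extent.

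Among the enzymes that set fructose 2,6-bisphosphate, the activator of phosphofructokinase, Pfkfb3 had the largest fall of any glycolysis member. In EMT6 it stood at 6.78, 6.86 and 6.58 FPKM in controls and 0.94, 1.03 and 1.48 in KO. The highest KO library was well below the lowest control. The log2 change was -2.57 ± 0.12 (edgeR adjusted p = 5.26e-10), 5.92-fold lower. In 4T1 it was at 1.52, 1.94 and 1.63 FPKM in controls and 1.89, 2.14 and 2.31 in KO, overlapping and not called (edgeR adjusted p = 0.0791), though called higher without control 2 (0.36) or KO 1 (0.30) and with total counts only or upper quartile scaling. The interaction was -2.79 ± 0.17 (edgeR adjusted p = 9.73e-13). Pfkfb4, the sister isozyme, rose in EMT6 from 1.32, 1.23 and 1.16 to 1.76, 1.78 and 2.01 FPKM (0.58 ± 0.14, edgeR adjusted p = 0.00171), so that the Pfkfb3 share of the pair went from 84.5 ± 0.702% to 38.0 ± 3.96%. In 4T1 the share was 52.9 ± 3.56% and 51.6 ± 3.66%, and Pfkfb4, not called with all libraries (0.31 ± 0.14), was called higher without control 2 (0.38) or KO 2 (0.39) and with the same scalings.

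**Figure D4:**
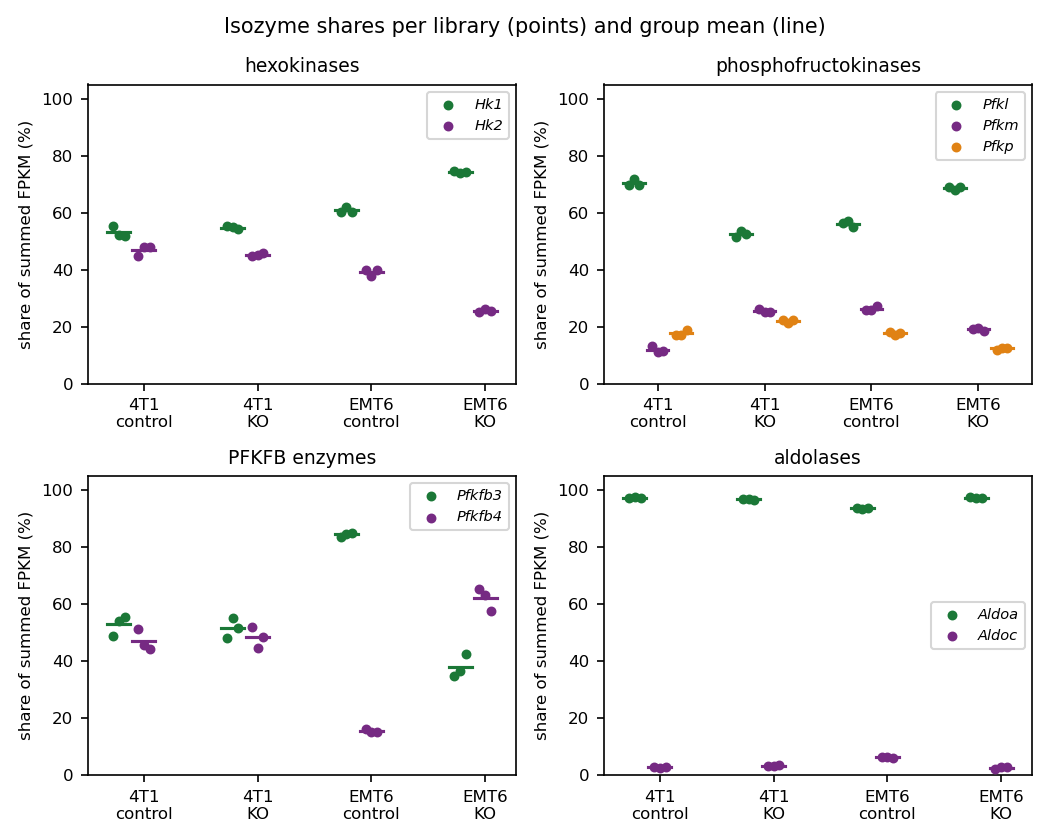
Share of each isozyme in the summed FPKM of its step (vertical axis, percent) in the 4 groups, for hexokinases, phosphofructokinases, PFKFB enzymes and aldolases; points are libraries and lines are means of 3. Pfkl falls from 70.4% to 52.5% in 4T1 and rises from 56.1% to 68.7% in EMT6, and Pfkfb3 goes from 84.5% to 38.0% in EMT6.

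The enzymes from aldolase to pyruvate kinase showed smaller changes on much higher levels. Tpi1, triose phosphate isomerase, stood at 222.6, 245.8 and 262.8 FPKM in 4T1 controls and 166.7, 171.7 and 173.2 in KO, all KO libraries being lower. It fell by 0.59 ± 0.05 (edgeR adjusted p = 9.7e-10) and was not called in EMT6 (0.17 ± 0.08, edgeR adjusted p = 0.0877), where it was called higher without control 2 (0.25, edgeR adjusted p = 0.00879). Pgam1, phosphoglycerate mutase, stood at 37.0, 36.6 and 37.4 FPKM in 4T1 controls and 27.3, 27.7 and 29.5 in KO, and fell by 0.47 ± 0.05 (edgeR adjusted p = 6.64e-08). In EMT6, Pgam1 was at 81.4, 115.3 and 105.8 FPKM in controls and 130.9, 127.8 and 151.5 in KO. That rise of 0.44 ± 0.14 (edgeR adjusted p = 0.0424) was lost without KO 1, without KO 3 or without control 3 (edgeR adjusted p = 0.0665, 0.0803 and 0.163). Eno1, enolase, fell by 0.28 ± 0.05 in 4T1 and rose by 0.27 ± 0.08 in EMT6, a rise lost without KO 3 (edgeR adjusted p = 0.0632). In EMT6 it stood at 60.7 ± 7.63 and 72.9 ± 3.66 FPKM, below 2 enolase genes outside the members. Eno3 fell there from 241 ± 20.2 to 143 ± 6.16 FPKM, and Eno1b rose from 134 ± 13.1 to 165 ± 11.4. The rise of Eno1 is therefore not a rise of all enolase transcripts. Eno2, the neuronal enolase, stood at 3.43, 3.49 and 3.0 FPKM in EMT6 controls and 3.96, 5.09 and 7.90 in KO. All KO libraries were higher, but it was not called (0.77 ± 0.27, edgeR adjusted p = 0.0563), while 6 of 15 alternatives, DESeq2, limma-voom and leaving out KO 3 (0.46) among them, called it higher. In 4T1, Eno2 overlapped between groups and was not called (-0.39 ± 0.33), its change being 0.03 without control 3 and called lower without control 2 (-0.60). Pkm, which makes pyruvate, fell by 0.22 ± 0.05 in 4T1 and rose by 0.24 ± 0.07 in EMT6, and both groups of both lines were apart for Pkm and Eno1.

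Aldoa, the main aldolase, was less settled. In 4T1 it stood at 344.0, 371.4 and 428.5 FPKM in controls and 331.1, 369.5 and 356.7 in KO, which overlap. Its fall of 0.19 ± 0.07 (edgeR adjusted p = 0.0297) was lost in 7 of 16 alternatives, among them leaving out control 3 (-0.11, edgeR adjusted p = 0.0748). In EMT6 it rose by 0.31 ± 0.08 (edgeR adjusted p = 0.00241) without overlap. Aldoc, the brain-type aldolase, fell in EMT6 from 30.8, 35.4 and 29.0 FPKM to 12.7, 15.5 and 19.3 (-1.01 ± 0.16, edgeR adjusted p = 0.00158), and its share of the aldolases went from 6.27 ± 0.193% to 2.61 ± 0.307%. It was not called in 4T1 (0.06 ± 0.08). The second Aldoa row ranged from 1.44 to 4.5 FPKM and was called in no comparison.

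Gapdh and Pgk1 are the hardest members to read. Gapdh, glyceraldehyde phosphate dehydrogenase, is abundant in nearly all cells but was listed at only 2.73 to 9.89 FPKM, and 58.4% of the 50-base stretches of its coding transcripts also occur in transcripts of 222 other genes. It was called higher in 4T1 (0.48 ± 0.13) and lower in EMT6 (-0.56 ± 0.14), the reverse of its pathway neighbours Tpi1 and Pgam1 in 4T1. Pgk1, phosphoglycerate kinase on the X chromosome, shares 68.0% of such stretches with 5 other genes. It was not called in 4T1 (0.04 ± 0.06) and rose in EMT6 by 0.32 ± 0.12 (edgeR adjusted p = 0.0458), a call lost without KO 3 (edgeR adjusted p = 0.0965) or without control 3 (edgeR adjusted p = 0.181). In 4T1 the genes of its chromosome had a median change of 0.30 and in EMT6 of 0.27. The shared stretches came to 59.1% for Bnip3, 49.5% for Eno1 and 41.5% for Pgam1, and the copy Eno1b held 38.9% to 44.1% of the counts of Eno1 and Eno1b together. Summing named copies into the members changed no call of Eno1, Pgam1, Pgk1, Gapdh or Ldha in either line. For Gapdh the summed copies held only 0.224% to 1.73% of the counts and for Ldha 0.349% to 0.491%. So few counts could hardly change a call, and summing does not restore reads that were discarded. No copies were summed for Bnip3. How reads that fit several genes were treated is not stated, so levels of these genes are uncertain.

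At the end of the pathway, Ldha, which turns pyruvate into lactate, stood at 372.8, 400.2 and 444.9 FPKM in 4T1 controls and 264.7, 279.1 and 271.8 in KO. The highest KO library was well below the lowest control. It fell by 0.66 ± 0.05 (edgeR adjusted p = 2.95e-10), 1.58-fold. In EMT6 it stood at 438.6, 514.2 and 435.4 FPKM in controls and 566.2, 579.6 and 688.8 in KO, with no overlap, and it rose by 0.40 ± 0.09 (edgeR adjusted p = 0.00172). The difference between the lines was 1.07 ± 0.12 (edgeR interaction, adjusted p = 8.84e-07). Pdk1, the kinase that keeps pyruvate out of the mitochondria, fell in 4T1 by 0.28 ± 0.07 (edgeR adjusted p = 0.00273). In EMT6 it stood at 14.01, 15.9 and 12.7 FPKM in controls and 16.4, 18.3 and 24.4 in KO. All KO libraries were above all controls, but the adjusted p was 0.0705 by edgeR, and DESeq2, limma-voom and 5 other alternatives, leaving out KO 3 (0.30) among them, called it higher.

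Added up, the 20 glycolysis members took 0.757%, 0.796% and 0.888% of all counts in the 4T1 controls and 0.675%, 0.708% and 0.697% in the KO libraries. The groups did not overlap. In EMT6 they took 1.06%, 1.17% and 1.02% in controls and 1.20%, 1.22% and 1.39% in KO, also apart. The mean went from 0.814 ± 0.0675% to 0.693 ± 0.0168% in 4T1 and from 1.08 ± 0.0801% to 1.27 ± 0.105% in EMT6. With 3 libraries against 3, an exact permutation test cannot go below p = 0.1. By number, 2 of 19 tested glycolysis members were called higher and 8 lower in 4T1 (median log2 change -0.13), and 10 of 20 higher and 6 lower in EMT6 (median 0.25), beside medians of 0.00 over all tested genes in each line. Of all tested genes, 28.0% were called higher and 29.0% lower in 4T1 and 27.9% and 28.2% in EMT6. The 6 members called lower in EMT6 (30.0%) are near that background, and the 2 called higher in 4T1 (10.5%) are below it. Among tested genes averaging 5 FPKM or more, 39.2% were called lower in 4T1, so the 8 members called lower there (42.1%) are near that share. Members called in either direction in 4T1 (52.6%) are below the 57.0% of all tested genes and the 64.4% of those averaging 5 FPKM or more. In EMT6, 32.5% of genes at that level were called higher, and the 10 of 20 members called higher are above that share. Taking FPKM instead, 3 members had all 4T1 KO libraries above the controls and 7 below, where 37.3% and 24.3% of all tested genes did (61.6% in either direction). In EMT6, 11 were above and 6 below, where 31.2% and 31.1% did (62.3% in either direction).

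The HIF subunit itself fell in both lines. Hif1a, the labile alpha subunit, stood at 88.1, 87.1 and 85.9 FPKM in 4T1 controls and 78.9, 78.0 and 79.3 in KO. In EMT6 it stood at 103.9, 99.96 and 109.4 FPKM in controls and 72.4, 75.1 and 65.6 in KO. Neither line had overlap. The fall was 0.22 ± 0.04 in 4T1 (edgeR adjusted p = 4.97e-05) and 0.55 ± 0.06 in EMT6 (edgeR adjusted p = 9.78e-07), larger in EMT6 by 0.32 ± 0.07 (edgeR interaction, adjusted p = 5.92e-04). The genes of its chromosome had a median change of -0.21 in 4T1, close to that of Hif1a, and of 0.08 in EMT6. The part of the chromosome in the 4T1 fall was not tested. Hif1a was the only member called lower in both lines, where 7.85% of genes tested in both were, and unlike most other members it was lowest in KO 3 among the EMT6 libraries. These are transcript levels, and HIF alpha is controlled chiefly through its protein, which was not measured here.

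The prolyl hydroxylases that mark HIF for destruction are HIF targets as well. Egln1 (PHD2), the main oxygen sensor, stood at 42.8, 43.8 and 48.9 FPKM in 4T1 controls and 41.6, 41.1 and 40.3 in KO, a narrow gap without overlap. It fell by 0.22 ± 0.05 (edgeR adjusted p = 7.17e-04). In EMT6 it rose from 36.9, 43.0 and 31.6 FPKM to 55.7, 56.7 and 74.2 (0.74 ± 0.17, edgeR adjusted p = 0.0123), a call lost without control 3 (edgeR adjusted p = 0.0602). Egln3 (PHD3), the hydroxylase most strongly induced by HIF, fell in 4T1 from 78.0, 91.4 and 97.8 FPKM to 47.0, 51.1 and 44.9. All KO libraries were below all controls, and the change was -0.98 ± 0.08 (edgeR adjusted p = 1.73e-06). In EMT6, Egln3 stood at 39.0, 44.2 and 31.5 FPKM in controls and 24.1, 24.0 and 34.7 in KO, where KO 3 lay among the controls. It was not called with all libraries (-0.47 ± 0.21, edgeR adjusted p = 0.111) and was called lower without KO 3 (-0.66).

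**Figure D5:**
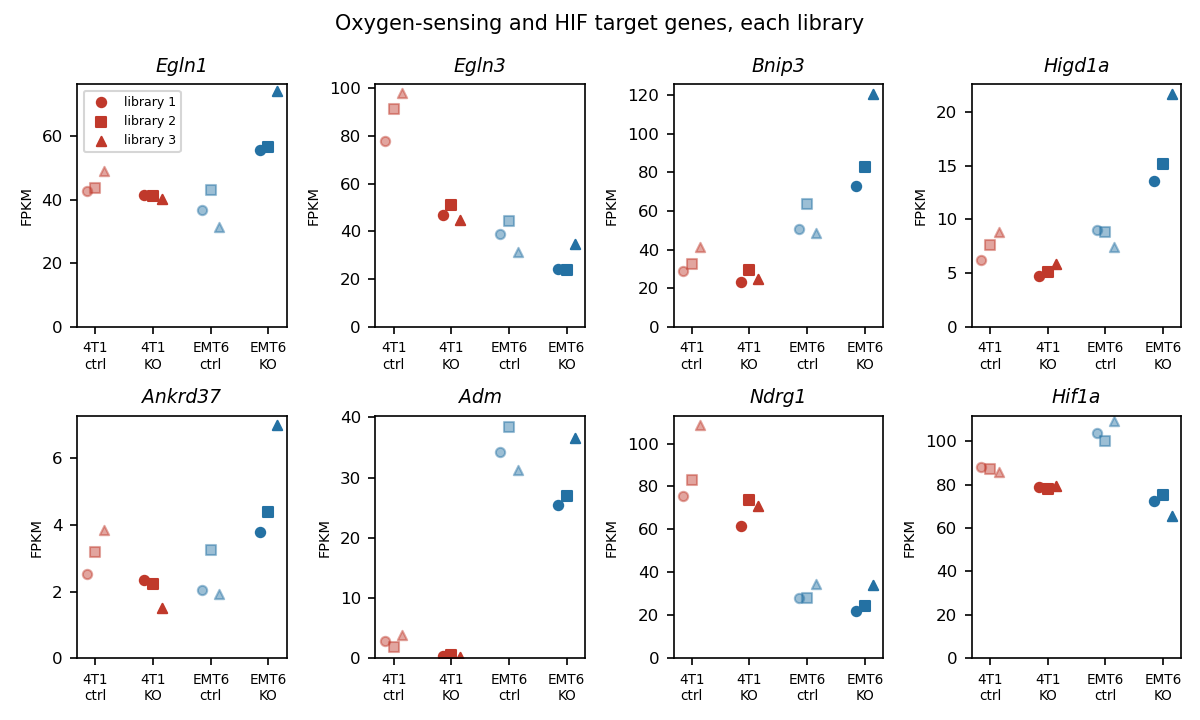
FPKM of 8 HIF-related members in each library (vertical axes start at 0), by group and library number; pale symbols are controls and dark symbols KO. Hif1a is lower in KO of both lines, Adm drops in 4T1 KO from 1.81 to 3.92 FPKM down to 0.28 to 0.53, and KO 3 is the highest EMT6 KO point in every panel but that of Hif1a.

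Of 3 genes that act on mitochondria, Higd1a moved in opposite directions, Bnip3l fell in 4T1, and Bnip3 was called in neither line. Higd1a, a mitochondrial protein that protects cells short of oxygen, stood at 6.21, 7.62 and 8.81 FPKM in 4T1 controls and 4.72, 5.13 and 5.85 in KO, and fell by 0.60 ± 0.11 (edgeR adjusted p = 1.01e-04). In EMT6 it went from 9.01, 8.80 and 7.38 FPKM to 13.6, 15.2 and 21.7, with every KO library above every control. The rise was 1.00 ± 0.19 on the log2 scale (SE, edgeR adjusted p = 0.0044), lost without control 3 (edgeR adjusted p = 0.0590). Bnip3, a mitophagy receptor, stood at 28.7, 32.5 and 41.5 FPKM in 4T1 controls and 23.5, 29.2 and 24.6 in KO, and at 50.7, 63.8 and 48.8 in EMT6 controls and 72.9, 82.5 and 120.5 in EMT6 KO. It was called in neither line (edgeR adjusted p = 0.0580 and 0.0560), but the difference between the lines was called at 1.25 ± 0.32 (edgeR interaction, adjusted p = 0.00998). In 4T1 it was called lower by 8 of 16 alternatives, among them DESeq2, limma-voom and leaving out control 3 (-0.34, edgeR adjusted p = 0.00363). In EMT6, where every KO library was above every control, 6 of 16 called it higher, among them DESeq2, limma-voom and leaving out KO 3 (0.52, edgeR adjusted p = 0.00768). Its relative Bnip3l fell in 4T1 by 0.25 ± 0.05 and was not called in EMT6 (-0.10 ± 0.09) except without KO 3 (-0.23).

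Among the other HIF targets, Adm had the largest change. It codes for adrenomedullin, a secreted peptide that widens vessels. In 4T1 it had 74, 44 and 87 counts in controls and 9, 14 and 8 in KO, or 2.83, 1.81 and 3.92 FPKM against 0.33, 0.53 and 0.28. The highest KO library held less than any control, and the change was -2.98 ± 0.32 (edgeR adjusted p = 2.64e-08), 7.87-fold lower. In EMT6, where Adm was far more abundant, it stood at 34.3, 38.3 and 31.3 FPKM in controls and 25.5, 27.0 and 36.5 in KO, overlapping through KO 3 and not called (edgeR adjusted p = 0.202). Without KO 3 it was called lower (-0.39). Ankrd37, a small ankyrin-repeat protein and a direct HIF target, fell in 4T1 from 2.53, 3.17 and 3.84 FPKM to 2.34, 2.22 and 1.51 (-0.72 ± 0.21, edgeR adjusted p = 0.0045). In EMT6 it rose from 2.04, 3.23 and 1.93 FPKM to 3.78, 4.37 and 6.98 (1.05 ± 0.26, edgeR adjusted p = 0.0052), so its groups were apart in both lines. Its span overlaps Ufsp2 on the other strand, which stood at 12.8 to 19.7 FPKM and changed by -0.11 in 4T1 and -0.23 in EMT6.

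Kdm3a, a histone demethylase induced by HIF, fell in 4T1 by 0.45 ± 0.06 (edgeR adjusted p = 3.27e-06) from 12.1 ± 0.955 to 9.34 ± 0.759 FPKM. It rose in EMT6 by 0.34 ± 0.10 (edgeR adjusted p = 0.0127), a call lost without control 1 or control 3 (edgeR adjusted p = 0.0516 and 0.0863). Ndrg1 stood at 75.5, 82.99 and 108.5 FPKM in 4T1 controls and 61.7, 73.6 and 70.9 in KO. The groups did not overlap, and it was called lower without control 3 (-0.30, edgeR adjusted p = 0.0013) but not with it (-0.45 ± 0.17, edgeR adjusted p = 0.0808). In EMT6 it was not called (-0.18 ± 0.19) except without KO 3 (-0.37) and with a replicate block. Bhlhe40, a transcriptional repressor induced by low oxygen and by other stresses, was the only member called higher in both lines, where 7.05% of genes tested in both were. It stood at 17.4, 17.9 and 20.95 FPKM in 4T1 controls and 22.5, 25.3 and 24.6 in KO (0.29 ± 0.06, edgeR adjusted p = 3.7e-04), and at 8.82, 9.38 and 5.33 in EMT6 controls and 13.98, 13.7 and 15.1 in KO (0.87 ± 0.22, edgeR adjusted p = 0.0200). The EMT6 rise was lost without KO 1 or KO 3 (edgeR adjusted p = 0.0570 and 0.0563).

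Of the 12 HIF members, 9 (75.0%) were thus called lower and 1 higher in 4T1 (median -0.45), and 5 (41.7%) higher and 1 lower in EMT6 (median 0.40). The shares over all tested genes were 29.0% lower and 28.0% higher in 4T1 and 28.2% lower and 27.9% higher in EMT6. In 4T1, leaving out control 3 added Bnip3 and Ndrg1, for 11 lower. In EMT6 the count turned on single libraries. Without KO 3, 5 members were called lower, namely Hif1a, Bnip3l, Egln3, Ndrg1 and Adm, and 6 were called higher (Egln1, Ankrd37, Higd1a, Kdm3a, Pdk1 and Bnip3), and without control 3 only 2 were called higher. Summed over the 12 genes, the share of all counts was 0.187%, 0.198% and 0.224% in 4T1 controls and 0.159%, 0.173% and 0.168% in KO, groups that did not overlap. In EMT6 it was 0.161%, 0.169% and 0.162% in controls and 0.149%, 0.158% and 0.192% in KO, which straddled the controls.

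The difference between the lines was tested directly as the interaction of line and knockout over all 12 libraries, in which 53.4% of 14301 genes were called (26.8% higher and 26.6% lower in EMT6). Of the 32 members, 15 (46.9%) had a higher KO effect in EMT6 and 6 (18.8%) a lower one, with a median difference of 0.53 beside -0.01 over all tested genes. The higher ones were 8 glycolysis members and 7 HIF members. The largest were Adm at 2.75 ± 0.48, Ankrd37 at 1.78 ± 0.37, Higd1a at 1.61 ± 0.27, Slc2a1 at 1.27 ± 0.16 and Bnip3 at 1.25 ± 0.32. The lower ones were Pfkfb3, Pfkm, Aldoc, Gapdh, Hk2 and Hif1a. Leaving out any 1 library left 8 to 10 glycolysis and 7 to 8 HIF members higher. The KO comparisons of the lines share no libraries.

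Genes around the pathway were examined from further lists, which, like the members, were chosen with earlier results of these data known. Of 37 other hypoxia-induced genes tested in 4T1, 19 (51.4%, beside 29.0% of all tested genes) were called lower and 6 higher (median -0.30). The lower ones were led by Car12, a carbonic anhydrase, which fell from 15.6 ± 0.775 to 4.45 ± 0.142 FPKM (-1.89 ± 0.06). Tfrc, the transferrin receptor, and Tgfa, a growth factor, followed (-0.83 ± 0.05 and -0.74 ± 0.05). Car12 and Tgfa went down in EMT6 as well, from 26.3 ± 0.246 to 17.8 ± 1.74 FPKM and from 4.59 ± 0.517 to 1.86 ± 0.0907. Tfrc stood there at 26.8 ± 5.7 and 28.2 ± 3.01 FPKM. For EMT6 the calls were 14 of 39 higher (35.9%) and 10 lower (25.6%, median 0.13), beside the 27.9% and 28.2% of all tested genes, and the 3 with the lowest adjusted p were all lower: Ddit4, an inhibitor of mTORC1, by -0.97 ± 0.06, the nuclear receptor Rora by -1.37 ± 0.08 and Loxl2, a collagen crosslinker, by -1.03 ± 0.08. Slc16a1, the lactate carrier MCT1, fell in both lines, from 50.9 ± 2.19 to 37.0 ± 0.795 FPKM in 4T1 (-0.54 ± 0.05) and from 180 ± 9.22 to 103 ± 1.35 FPKM in EMT6 (-0.80 ± 0.06). It thus followed Ldha in 4T1 and went against it in EMT6. Of the other glycolysis, lactate and glucose entry genes, 9 of 19 were called higher and 8 lower in 4T1, and 6 of 20 higher and 7 lower in EMT6. Those shares are 47.4% and 42.1% in 4T1, beside 28.0% and 29.0% of all tested genes, and 30.0% and 35.0% in EMT6, beside 27.9% and 28.2% there. Gpd1l and Pck2 rose in 4T1 (0.76 ± 0.06 and 0.82 ± 0.07). In EMT6, Pck2 was called lower (-0.77 ± 0.12) and Gpd1l was not called (-0.17 ± 0.07). Ldhd, which oxidizes D-lactate, and the muscle enolase Eno3 fell in EMT6 (-2.40 ± 0.15 and -0.75 ± 0.07). Eno3 was also called lower in 4T1 (-0.13 ± 0.05), where Ldhd was not tested.

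Genes of pyruvate entry into the mitochondria and of the pentose phosphate and glycogen branches were called in both directions, and their counts stand beside backgrounds of 28.0% higher and 29.0% lower in 4T1 and 27.9% and 28.2% in EMT6. Of the first, 4 of 12 were called higher (33.3%) and 1 lower (8.33%) in 4T1, with Pdk2, a sister of Pdk1, rising from 2.33 ± 0.123 to 5.37 ± 0.445 FPKM (1.13 ± 0.12) while Pdk1 fell. Pdp1, the opposing phosphatase, rose by 0.32 ± 0.07, and Dld, a subunit of pyruvate dehydrogenase, fell by 0.23 ± 0.04. For EMT6 the calls were 3 of 13 higher (23.1%) and 5 lower (38.5%), among them the subunits Dlat, Pdhb and Dld (-0.38 ± 0.05, -0.36 ± 0.06 and -0.63 ± 0.08). Of the pentose phosphate and glycogen genes, 6 of 17 were called higher (35.3%) and 4 lower (23.5%) in 4T1, and 6 of 16 higher and 6 lower (37.5% each) in EMT6. Rpia, ribose 5-phosphate isomerase, fell in both lines (-0.79 ± 0.08 and -0.92 ± 0.08), and the glycogen primer Gyg rose in 4T1 (0.59 ± 0.06) and fell in EMT6 (-0.70 ± 0.08). The glycogen phosphorylase Pygb rose in 4T1 (0.53 ± 0.06), and the glycogen branching enzyme Gbe1 fell in EMT6 (-0.79 ± 0.06).

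Among other regulators of HIF, 3 of 16 genes were called higher (18.8%) and 6 lower (37.5%) in 4T1, and 7 of 18 higher (38.9%) and 5 lower (27.8%) in EMT6, beside the same backgrounds of 28.0% and 29.0% and of 27.9% and 28.2%. Arnt, the stable HIF partner, rose in 4T1 (0.46 ± 0.06). Hsp90aa1, a chaperone of HIF alpha, and Cited2, which competes with HIF for p300, fell there (-0.42 ± 0.04 and -0.25 ± 0.04). Arnt went the other way in EMT6, from 12.8 ± 0.0462 to 10.3 ± 0.09 FPKM, as did Cited2, from 83.5 ± 6.6 to 106 ± 1.3. Hsp90aa1 stood at 321 ± 23.4 and 294 ± 8.95 FPKM in EMT6. In EMT6, Vhl and Eloc, parts of the ligase that destroys hydroxylated HIF alpha, both rose by 0.60 (SE 0.09 and 0.07). Siah1a, a ligase that targets prolyl hydroxylases, fell there by 0.61 ± 0.08. Their 4T1 control and KO means were 6.17 ± 0.238 and 7.01 ± 0.11 FPKM for Vhl and 23.3 ± 1.16 and 20.8 ± 0.815 for Eloc. For Siah1a they were 16.2 ± 1.77 and 18.3 ± 0.826 FPKM. Of transcription factors outside HIF that act on glycolytic genes, 7 of 13 were called higher (53.8%) and 3 lower (23.1%) in 4T1, and 3 of 13 higher (23.1%) and 2 lower (15.4%) in EMT6. Myc fell in both lines, from 189 ± 1.68 to 134 ± 7.3 FPKM in 4T1 (-0.57 ± 0.05) and from 65.2 ± 4.83 to 42.3 ± 3.99 FPKM in EMT6 (-0.62 ± 0.07). Its partner Max fell in 4T1 (-0.85 ± 0.05). Tfe3 rose in both lines (0.69 ± 0.06 and 0.72 ± 0.06), and Usf2 rose in EMT6 (0.60 ± 0.08). In the MondoA glucose-sensing set, 2 of 4 genes were called higher and 1 lower in 4T1, and 1 of 3 higher and 1 lower in EMT6, too few for a share to be read against the background. Its best-known target, Txnip, which restrains glucose uptake, rose in EMT6 from 17.9 ± 0.754 to 41.0 ± 0.675 FPKM (1.20 ± 0.06) and was not called in 4T1 (-0.06 ± 0.08). Mlx, the shared partner of that set, fell in 4T1 (-0.51 ± 0.08), and Mlxip, which codes for MondoA, rose in 4T1 (0.13 ± 0.05) and fell in EMT6 (-0.25 ± 0.08).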

How the data were processed

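RNA of 12 libraries was analysed from the deposited table of each line, which lists raw read counts and FPKM. The submitters' processing notes name HISAT2 2.2.1, cutadapt 1.9.1, HTSeq 0.6.1, DESeq2 and GRCm38 without their roles. No source used here gives the strand setting or the treatment of multi-gene reads. All 680292 deposited FPKM values equalled count, scaled by exonic size and library total, within 0.005. Gene coordinates of the tables do not match GRCm38 and are not printed. Promoters are RefSeq, GRCm38.p6.

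Counts were tested in R 4.3.3 with edgeR 4.0.16: filterByExpr, TMM, robust quasi-likelihood test, 2-sided, Benjamini-Hochberg over all tested genes, with each line fitted alone. The line difference and the controls of both lines came from a joint fit of all 12 libraries. Values are means with SD over 3 libraries, and changes are log2 with SE. The SE of an edgeR change was derived as its absolute value divided by the square root of the test's F statistic. edgeR's biological coefficient of variation came to 4.82% (4T1) and 6.73% (EMT6). At 13705612 counts, the lowest total, 3 counts correspond to 0.219 CPM, a limit that covers counting error only.

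The members and lists were chosen with earlier results of these data known. Named genes were all members, Nedd4, Malat1, Neat1, the cell type markers and, from each further list and line, up to 3 called genes with the lowest adjusted p among those reaching a mean of 1 FPKM. Senp1, Pitrm1, Ufsp2 and Eno1b were named after their values were seen. Shared stretches are 50-base words of GENCODE M21 coding transcripts.

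Replicate numbers recur in both groups of a line. Deviations of same-numbered libraries correlated at -0.023, -0.010 and 0.009 in 4T1 and -0.130, -0.007 and -0.111 in EMT6. No shared signal by number was thus seen, which cannot show whether same-numbered libraries were prepared together. The main tests leave the numbers out, and the replicate block is an alternative. On simulated counts for 4T1 (13313 genes) the test recovered 66.2%, 92.4% and 98.5% of genes changed 1.25-fold, 1.5-fold and 2-fold, and for EMT6 (12890 genes) 35.3%, 90.9% and 98.5%. Only 68, 66 and 66 genes were changed in each line, none at the lowest counts, and all genes had the same spread. In the real data 57.0% and 56.0% of genes were called, so these rates need not hold there. Alternatives were DESeq2 1.42.0, limma-voom (limma 3.58.1), DESeq2 size factors, total counts only, upper quartile scaling, no low-count filter, a mean of at least 5 FPKM, no robust estimation, a replicate block, each library left out, and copies summed into the members, the last chosen after seeing the data.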

Additional observations from a re-analysis of the deposited data

Results flagged for a closer look

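For 21 members the KO effect differed between EMT6 and 4T1 by the interaction test of edgeR (adjusted p under 0.05, where 53.4% of all tested genes passed). The values are log2 changes in EMT6 minus those in 4T1. Among transporters and enzymes, the difference was 1.27 for Slc2a1, 1.10 for Pfkl, 0.51 for Aldoa, 0.77 for Tpi1, 0.91 for Pgam1, 0.55 for Eno1, 0.47 for Pkm and 1.07 for Ldha. It was -0.73 for Hk2, -1.21 for Pfkm, -2.79 for Pfkfb3, -1.06 for Aldoc and -1.03 for Gapdh, the last with shared sequence in many other genes. Among HIF members, it was 0.75 for Pdk1, 1.25 for Bnip3, 0.97 for Egln1, 1.78 for Ankrd37, 2.75 for Adm, 1.61 for Higd1a, 0.80 for Kdm3a and -0.32 for Hif1a. Adm rests on 8 to 14 counts per library in 4T1 KO.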

How the results depend on the processing

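No member's call changed direction under any alternative run. With only genes of a mean of at least 5 FPKM tested, fewer genes were called: 4900 in 4T1, 4810 in EMT6, 5010 for the line difference and 6285 between controls. In 4T1, the glycolysis members called higher numbered 4 with total counts only, 4 with upper quartile scaling and 1 with at least 5 FPKM, where Gapdh is not tested, and 2 to 4 with a library left out. In EMT6, 2 HIF members were called lower, not 1, with limma-voom, without a low-count filter, without robust estimation and with the replicate block. With a library left out, EMT6 HIF members called lower ranged from 1 to 5 and those called higher from 2 to 6. Between controls, 1 to 2 glycolysis members were called lower. As a share of FPKM in place of counts, the glycolysis members took 0.698% and 0.599% in 4T1 controls and KO, and 0.971% and 1.15% in EMT6. The replicate block called 7676 genes in 4T1 and 6830 in EMT6, against 7589 and 7224 without it, and lost Slc2a1 and Pfkl in EMT6. Leaving out the low-count filter moved the median of all genes in 4T1 to 0.12. The cause of these shifts was not tested. Precision is limited by 3 libraries per group and, for Slc2a3 and Adm in 4T1, by few counts.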
